A study of Mus musculus with 2 samples.

Results

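The 9 genes described here encode the core of the mitochondrial cell death pathway: the effectors Bax and Bak1, the survival genes Bcl2, Bcl2l1 and Mcl1, the BH3-only genes Bcl2l11 and Bbc3, and the apoptosome genes Casp9 and Apaf1. They were picked by symbol, and all 9 were found among the 43346 mouse genes of each deposited gene table. Total RNA had been sequenced from whole neural tube of B6NCrl mouse embryos at day 13.5, in 2 biological replicates that form 1 group of untreated, healthy tissue pooled from males and females. Each library was made from 10 ng of RNA longer than 200 nucleotides, with spike-in RNA added. The labels name a separate tissue sample for each library but no litters, so the spread between them may be partly technical. With a single group there is no contrast between conditions, and each difference below sets one library against the other.

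Death by this pathway is decided at the outer membrane of the mitochondrion. The proteins of Bax and Bak1 form pores there, the proteins of Bcl2, Bcl2l1 and Mcl1 hold them back, and BH3-only proteins such as Bim (from Bcl2l11) and Puma (from Bbc3) tip the balance toward the pore. Cytochrome c that leaks out assembles Apaf1 and caspase-9 into the apoptosome, which activates the executioner caspases. In the mouse spinal cord and its ganglia, many newly formed motor and sensory neurons die in the days around this stage. Loss of Bax spares many of them, and loss of Bcl2l1 kills immature neurons widely.

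The libraries held 34125110 and 22311849 expected counts (estimated reads) in replicates 1 and 2, of which 32151162 and 21084234 fell on mouse genes. The labelled tissue carried its defining markers: 10 of 10 neuron markers, 10 of 10 motor neuron markers and 9 of 10 progenitor markers reached 1 TPM in both libraries (TPM is transcript abundance per unit of length, scaled to a fixed sum in each library). Sensory ganglion and crest markers did so for 12 of 13, so ganglion RNA was present beside that of the tube. Skeletal muscle markers (10 of 12 detected), cartilage markers (7 of 10) and blood cell markers (10 of 12) were present as well. The muscle, cartilage and epithelium lists were higher in replicate 2, with summed levels of 158 and 301 TPM, 135 and 198 TPM, and 14.2 and 33.2 TPM in replicates 1 and 2. Genes varied between the libraries with a common biological coefficient of variation of 9.24%, estimated on 1 degree of freedom.

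All 9 genes reached 1 TPM in each library, the level taken here as detected, over a 67.0-fold range in replicate 1 and a 61.2-fold range in replicate 2. Bax and Bcl2l1, 1 effector and 1 survival gene, stood at the top, and Bak1, the other effector, at the bottom. The order of the mean levels was Bax, Bcl2l1, Mcl1, Bbc3, Casp9, Apaf1, Bcl2l11, Bcl2 and Bak1. The libraries' values overlapped between 2 of the 8 neighbouring pairs in that order, Bbc3 with Casp9 and Bcl2l11 with Bcl2, and did not overlap in the other 6. The genes were measured in the same 2 libraries, so their values are paired, and the order was not tested and is a description. Even an unpaired exact test of 2 values against 2 could not give a p below 0.333. The median of the 9 mean levels was 16.2 TPM, against 18.5 TPM for the 13263 protein-coding genes detected in each library, and 3 of the 9 lay above that median.

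**Figure D1:**
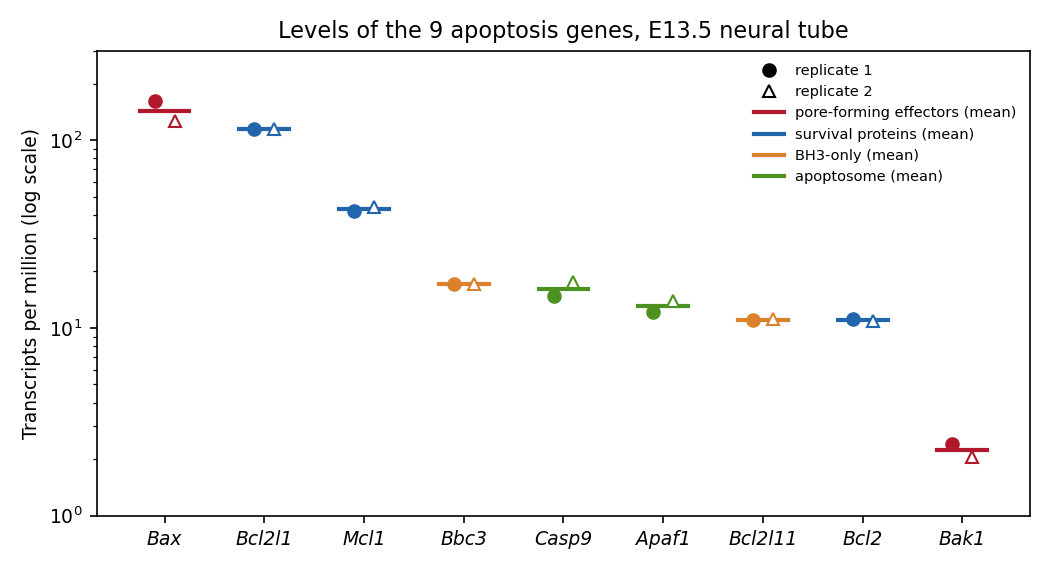
Level of each of the 9 genes in TPM (log scale), with replicate 1 as a filled circle, replicate 2 as an open triangle and their mean as a bar coloured by role. Bax (161 and 126 TPM) and Bcl2l1 (115 TPM in each) lie at the top, 6 genes lie between 10.9 and 44.0 TPM, and Bak1 (2.41 and 2.06 TPM) lies apart at the bottom.

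Bax (ENSMUSG00000003873.10, chr7:45461697-45466898, minus strand, GRCm38), the effector on which most developing neurons depend, stood at 161 TPM in replicate 1 and 126 TPM in replicate 2 (144 ± 25.0, SD, n = 2). Its mean lay at percentile 92.6 of detected protein-coding genes. It rested on 2811 and 1391 counts, all assigned to the 1 Bax transcript in the tables. Replicate 1 was the higher library, and the coefficient of variation of 17.4% was the highest of the 9. After scaling for depth, its counts were 1.33-fold higher in replicate 1, a log2 ratio of replicate 2 over replicate 1 of -0.42 ± 0.05 (SE from counting; adjusted p = 4.2e-17, two-sided exact binomial test, Benjamini-Hochberg over 17428 genes). In bulk tissue, fewer cells that hold a transcript and less of it in each cell cannot be told apart.

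Bak1 (ENSMUSG00000057789.9, chr17:27019810-27029009, minus strand) was the least abundant of the 9, at 2.41 and 2.06 TPM (2.235 ± 0.247, SD, n = 2), on 106 and 62.4 counts. Bax exceeded it 67.0-fold and 61.2-fold in replicates 1 and 2 (64.1 ± 4.10). Much of the Bak1 RNA was assigned to a transcript that cannot make the full protein. Bak1-201 holds an extra exon of 20 bases that Bak1-202, the protein-coding form with a 627-base reading frame, skips; 20 is not a multiple of 3, the frame ends early, and GENCODE marks the transcript as a target of nonsense-mediated decay. A short Bak1 exon of this kind is known from neurons. The exon lies on the minus strand at chr17:27021663-27021682 (GRCm38, from GENCODE M21 transcripts) and is shown in capitals after the last 30 bases of the coding exon before it:
Bak1 short exon: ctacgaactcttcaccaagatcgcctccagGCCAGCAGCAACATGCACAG
The deposited isoform percentage, a transcript's share of its gene's TPM, gave Bak1-201 82.6% in replicate 1 and 40.8% in replicate 2, and Bak1-202 the rest. These transcripts were singled out after their values had been seen. Counts behind the form with the short exon were 84.5 of 106 in replicate 1 (79.5%, 95% Wilson interval 71.6 to 86.7) and 22.5 of 62.4 in replicate 2 (36.1%, 26.2 to 49.5). These intervals cover counting error alone and leave out the error of assigning reads to models. The quantifier's posterior mean counts for Bak1-201 were 80.6 ± 8.55 and 21.2 ± 10.2 (posterior SD), and the shares built on posterior means were 67.0% and 27.4%. Whether the share differed between the libraries was not tested. The models also differ at their 5′ ends, so the estimate does not rest on reads over the short exon alone. From protein-coding transcripts only, Bak1 stood at 0.42 and 1.22 TPM, under 1 TPM in replicate 1. On the other strand lies Ggnbp1, at 2.84 and 2.42 TPM (130 and 105 counts); how the authors treated strand is not given in the sources used here, so reads in the overlap of these genes cannot be told apart.

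The survival genes together held 168 and 170 TPM in replicates 1 and 2, and most of that was Bcl2l1. Bcl2l1 (ENSMUSG00000007659.14, chr2:152780668-152831728, minus strand) encodes Bcl-xL, the survival protein that immature neurons depend on. It stood at 115 TPM in each library (115 ± 0.106, SD, n = 2), at percentile 90.3, on 5840 and 3721 counts. The libraries did not differ for it by the exact binomial test (log2 ratio -0.05 ± 0.03, adjusted p = 0.218). Its main transcripts, Bcl2l1-201 (59.5% and 55.0% of the gene's TPM) and Bcl2l1-202 (28.1% and 33.9%), share a 699-base reading frame, that of Bcl-xL, and differ in the 5′ untranslated part. Together they held 87.5% and 88.8% (88.2 ± 0.905), or 92.2% (91.4 to 92.8) and 93.5% (92.6 to 94.2) of the gene's counts. How reads split between them is less certain than their sum: Bcl2l1-201 had 3581 and 2100.2 counts with posterior SDs of 161 and 121. The last coding segment of the Bcl-xL frame, which holds the end of the protein that anchors it in membranes, is absent from Bcl2l1-205 and Bcl2l1-206, whose frames end in the intron before it and which held 4.32% and 3.62%. It lies on the minus strand at chr2:152782148-152782282 (135 bases):
Bcl2l1 last coding segment: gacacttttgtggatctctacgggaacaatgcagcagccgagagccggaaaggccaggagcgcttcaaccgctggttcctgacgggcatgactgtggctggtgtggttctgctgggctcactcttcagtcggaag
Models whose reading frame has no annotated end held the remaining 8.14% and 7.56%, and the largest of them, Bcl2l1-203, 5.53% and 4.38%. Bcl2l1-205 (4.05% and 3.01%) has an annotated frame end, but the end of its RNA is not annotated either. No transcript in the files is annotated with the reading frame of Bcl-xS, the short death-promoting form, so that form was not analysed here.

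Mcl1 (ENSMUSG00000038612.12, chr3:95658788-95663176, plus strand), a short-lived survival protein that neural progenitors need, stood at 42.2 and 44.0 TPM (43.1 ± 1.30, SD, n = 2), on 3228 and 2135 counts. All its counts went to 1 transcript, and its log2 ratio was 0.00 ± 0.04 (adjusted p = 0.996, exact binomial test). Bcl2l1 exceeded Mcl1 2.72-fold and 2.61-fold. Bcl2 (ENSMUSG00000057329.7, chr1:106538178-106714274, minus strand), the founding member of the family and a survival factor of neurons after they have left the cell cycle, was the lowest of the survival genes at 11.2 and 10.9 TPM (11.1 ± 0.212), on 1412 and 916 counts. Bcl2l1 exceeded it 10.2-fold and 10.5-fold (10.4 ± 0.209), and Mcl1 did so 3.76-fold and 4.03-fold. The log2 ratio of Bcl2 between the libraries was -0.03 ± 0.06 (adjusted p = 0.831, exact binomial test). Its transcripts, also singled out after their values had been seen, were Bcl2-201 with a 708-base frame, the alpha form, at 64.9% and 71.6%, and Bcl2-202 with a 597-base frame, the unspliced beta form, at 35.1% and 28.4%. By counts the alpha form held 82.7% and 86.7%. Only the alpha frame holds the segment below, the coding part of the last exon, which encodes the membrane anchor (minus strand, chr1:106543267-106543398, 132 bases):
Bcl2 last coding segment: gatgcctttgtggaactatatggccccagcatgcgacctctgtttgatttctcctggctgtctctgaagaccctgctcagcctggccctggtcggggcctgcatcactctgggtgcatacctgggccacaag
The beta form is unspliced at the point where the frames part, and reads of unspliced Bcl2 RNA were not told apart from it. Gm37053, an unclassified gene within Bcl2 on the same strand, stood at 0.40 and 0.21 TPM, and the antisense D630008O14Rik at 0.24 and 0.31 TPM.

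Bcl2, Bcl2l1 and Mcl1 summed exceeded Bax and Bak1 summed 1.03-fold in replicate 1 and 1.33-fold in replicate 2 (1.18 ± 0.212, SD, n = 2). These sums leave out Bok, a pore-forming relative described below, at 46.4 and 44.3 TPM in replicates 1 and 2. They also leave out the other survival relatives, at 3.24 and 4.10 TPM together. Adding Bok alone would put the effector sum above the survival sum in each library. Which sum is the higher therefore depends on the genes counted. The sum of Bcl2, Bcl2l1 and Mcl1 differed little between the libraries. Bax and Bak1 summed to 164 and 128 TPM in replicates 1 and 2, nearly all of it Bax. Bcl2l1 alone stood at 0.712 and 0.913 of the Bax level. Since Bcl2l1 was at 115 TPM in each, the difference in that ratio lay in Bax.

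The BH3-only genes among the 9, Bbc3 and Bcl2l11, held 28.2 TPM in each library, 0.168 and 0.166 of the survival sum. The 6 other BH3-only genes, described below, held more, at 91.66 and 99.15 TPM together. Bbc3 (ENSMUSG00000002083.8, chr7:16308393-16318205, plus strand), which encodes Puma, a classical target of p53, stood at 17.15 and 17.1 TPM (17.1 ± 0.0495, SD, n = 2), on 502 and 312 counts. Its log2 ratio was -0.09 ± 0.10 (adjusted p = 0.611, exact binomial test). Bbc3-201, the leading protein-coding model, held 58.2% and 53.5% of the gene's TPM, and Bbc3-203, a model with a retained intron, 34.1% and 44.9%. By counts that model held 20.6% and 27.5%; it was named after its values had been seen. From protein-coding transcripts only, Bbc3 stood at 11.3 and 9.42 TPM.

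Bcl2l11 (ENSMUSG00000027381.12, chr2:128126038-128162547, plus strand) encodes Bim, which neurons deprived of growth factor induce. It stood at 11.05 and 11.1 TPM (11.1 ± 0.0354, SD, n = 2), on 881 and 620 counts, below Bbc3 in each library: the Bcl2l11 level was 0.644 and 0.650 of that of Bbc3 (0.647 ± 0.00394). Its log2 ratio between the libraries was 0.09 ± 0.08 (adjusted p = 0.411, exact binomial test). Bim is made in 3 well-known lengths, extra-long (EL), long (L) and short (S), by skipping stretches of 1 coding region. Both stretches lie on the plus strand (GRCm38, from GENCODE M21 transcripts). The stretch at chr2:128128757-128128924 (168 bases) is kept in BimEL alone of these 3 forms, and the next one, at chr2:128128925-128129014 (90 bases), in BimEL and BimL:
Bcl2l11 stretch kept in BimEL alone: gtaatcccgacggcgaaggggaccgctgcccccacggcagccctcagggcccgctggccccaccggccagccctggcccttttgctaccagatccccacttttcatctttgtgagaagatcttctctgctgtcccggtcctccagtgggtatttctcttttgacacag
Bcl2l11 stretch kept in BimEL and BimL: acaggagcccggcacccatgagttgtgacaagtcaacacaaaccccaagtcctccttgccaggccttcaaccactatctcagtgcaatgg
The lengths of both are multiples of 3, so skipping them leaves the frame open. Bcl2l11-205, the BimEL model with a 588-base frame, led in each library with 60.2% and 70.7% of the gene's TPM, and with 84.4% (95% Wilson interval 81.8 to 86.6) and 89.5% (86.9 to 91.7) of its counts. Bcl2l11-203, the BimL model (420 bases), was listed at 0 in each library, with posterior mean counts of 28.8 ± 22.8 and 18.3 ± 15.3 (posterior SD). Bcl2l11-201, the BimS model (330 bases), was given 11.1% and 66.4 counts in replicate 1 and was listed at 0 in replicate 2. Its posterior mean counts were 59.1 ± 22.8 and 8.77 ± 8.01, and Bcl2l11-204, a model with the same 330-base frame, was listed at 0 in each library. By posterior means, which give each model some reads, BimS models held 11.0% and 5.07% of the gene's TPM together. The posterior SD was close to the posterior mean for BimL in each library and for Bcl2l11-201 in replicate 2, but not for Bcl2l11-201 in replicate 1. Bcl2l11-202, with a 273-base frame that lacks the last 2 coding exons of the other forms, held 4.43% and 9.62%, on 24.4 and 33.7 counts. Noncoding models, of which Bcl2l11-206 (11.6% and 11.5%), Bcl2l11-207 (8.55% and 2.24%) and Bcl2l11-208 (4.12% and 5.99%) reached 5% in a library, held 24.2% and 19.7% of the TPM but 5.34% and 5.07% of the counts.

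**Figure D2:**
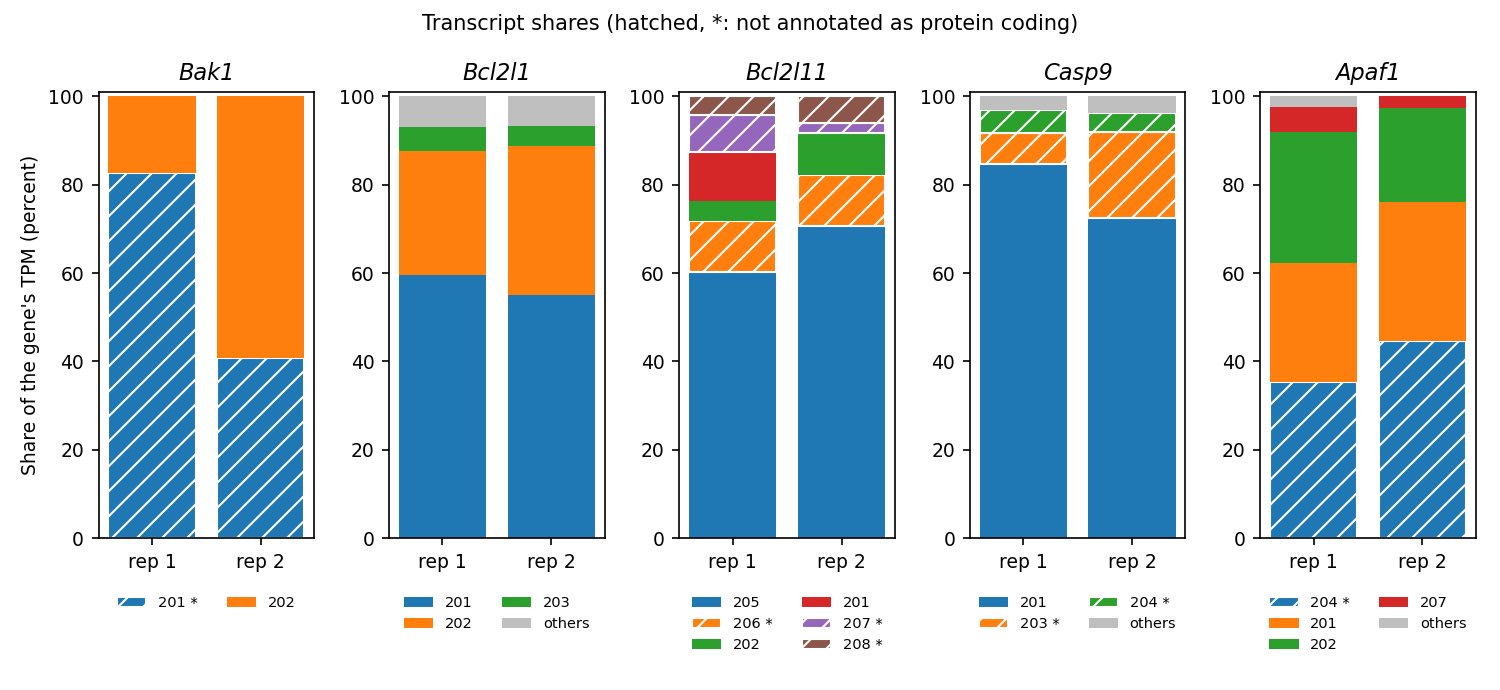
Share of the gene's TPM (percent) given to each annotated transcript of Bak1, Bcl2l1, Bcl2l11, Casp9 and Apaf1 in replicates 1 and 2, with models that are not protein coding hatched. The Bcl-xL models of Bcl2l1 (201 and 202) hold 87.5% and 88.8%, whereas the Bak1 form with the short exon (201) holds 82.6% in replicate 1 and 40.8% in replicate 2.

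The apoptosome genes stood near each other, Casp9 above Apaf1 in each library. Casp9 (ENSMUSG00000028914.9, chr4:141793612-141815976, plus strand), the initiator caspase, stood at 14.9 and 17.5 TPM (16.2 ± 1.87, SD, n = 2), and Apaf1 (ENSMUSG00000019979.8, chr10:90989311-91082770, minus strand), its scaffold, at 12.2 and 14.0 TPM (13.1 ± 1.29). Apaf1 was at 0.817 and 0.797 of the Casp9 level (0.807 ± 0.0139). Replicate 2 was the higher library for each of them in TPM, by 1.18-fold for Casp9 and 1.15-fold for Apaf1. Counts scaled for depth did not show this: on 1140 and 756 counts, the log2 ratio of Casp9 was 0.01 ± 0.07 (adjusted p = 0.978, exact binomial test), and on 1080 and 729 counts that of Apaf1 was 0.03 ± 0.07 (adjusted p = 0.805). The effective length by which the quantifier divided the counts was shorter in replicate 2, 3389 and 3010 bases for Casp9 and 3928 and 3639 bases for Apaf1, and more of their TPM was assigned to short noncoding models there.

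Casp9-201, with the full 1362-base frame, held 84.6% and 72.5% of the gene's TPM and 94.8% and 91.4% of its counts. The short noncoding Casp9-203 (854 bases, near the 3′ end of the gene) held 7.01% in replicate 1 and 19.4% in replicate 2 on only 17.8 ± 8.80 and 36.8 ± 8.46 counts (posterior SD), and Casp9-204 held 5.20% and 4.44%. For Apaf1, whose transcripts were looked at after their values had been seen, Apaf1-201 and Apaf1-202 share a 3747-base frame and held 56.6% and 52.8% together. Apaf1-204, a noncoding model of 511 bases, held 35.4% and 44.6% on 40.1 and 36.8 counts, or 3.71% and 5.05% of the gene's counts. In percent of TPM a short model weighs more than its reads. From protein-coding transcripts only, Casp9 stood at 13.1 and 13.35 TPM and Apaf1 at 7.55 and 7.74 TPM, and neither showed the difference between the libraries that the full TPM did. On the strand opposite Casp9, Cela2a and Ctrc had 0 counts in each library.

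**Figure D3:**
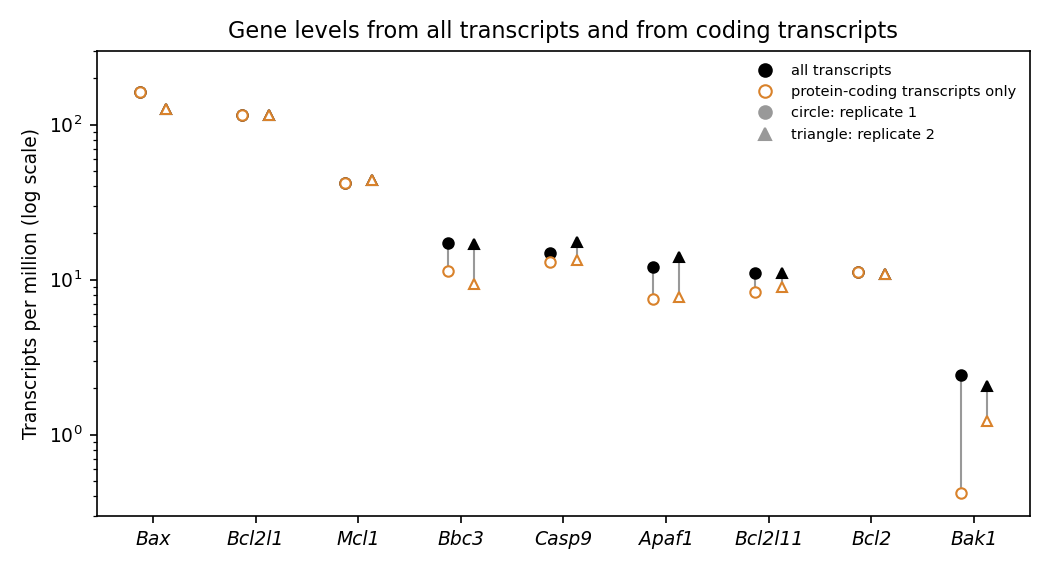
Level of each gene in TPM (log scale) from all transcripts (black) and from protein-coding transcripts only (orange), with circles for replicate 1 and triangles for replicate 2. Bax, Bcl2l1, Mcl1 and Bcl2 keep their level, Apaf1 goes from 12.2 and 14.0 to 7.55 and 7.74 TPM, and Bak1 from 2.41 and 2.06 to 0.42 and 1.22 TPM.

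Counting only protein-coding transcripts left Bax, Bcl2l1 and Mcl1 at the top and Bak1 at the bottom, and changed the order between them. Casp9 (mean 13.2 TPM) then stood above Bcl2 (11.1 TPM), Bbc3 (10.4 TPM), Bcl2l11 (8.65 TPM) and Apaf1 (7.65 TPM). The libraries' values of Bbc3 (11.3 and 9.42 TPM) overlapped those of Bcl2 (11.2 and 10.9 TPM), and Bbc3 was the higher in replicate 1. On this count the mean ratio of Apaf1 over Casp9 was 0.579, and that of Bcl2l11 (8.38 and 8.91 TPM) over Bbc3 was 0.843.

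Between the libraries, 0 of the 9 genes differed by 2-fold or more with an adjusted p below 0.05 (exact binomial test), where 2.25% of the 17428 tested genes did (1.46% higher and 0.792% lower in replicate 2). All 9 had mean counts above 50, and of the 14157 genes whose counts averaged at least 50, 0.826% differed so. At the adjusted p alone 1 of the 9 differed, Bax, against 24.6% of tested genes (12.8% higher and 11.8% lower), and 1 did at an unadjusted p under 0.05. A share of 1 in 9 is not above that background. Of all tested genes, 15.4% lay at least as far from 0 as Bax. The median absolute log2 ratio was 0.05 for the 9 genes and 0.14 for all tested genes, and the median log2 ratio was -0.03 and 0.00. Tested genes include many with far fewer counts, whose ratios carry a larger counting error. Neither the 15.4% nor the 0.14 is therefore a value for genes of like depth. By counts 4 of the 9 were higher in replicate 2 (Bcl2l11, Apaf1, Casp9 and Mcl1) and 5 were lower. Next to Bax, Bak1 had the largest ratio, -0.17 ± 0.23 (adjusted p = 0.672), within its counting error. Scaling by spike-ins instead of by trimmed mean moved the split of all genes past the adjusted p from 52.0% to 83.4% higher in replicate 2. Under it the log2 ratio of Bax was -0.33 (adjusted p = 5.2e-11), and those of Bcl2l1 and Bcl2, near 0 before, were 0.0350 and 0.0612 with neither past the threshold. This scaling shifts all genes alike, and it moved the median of all tested genes from 0.00 to 0.09.

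**Figure D4:**
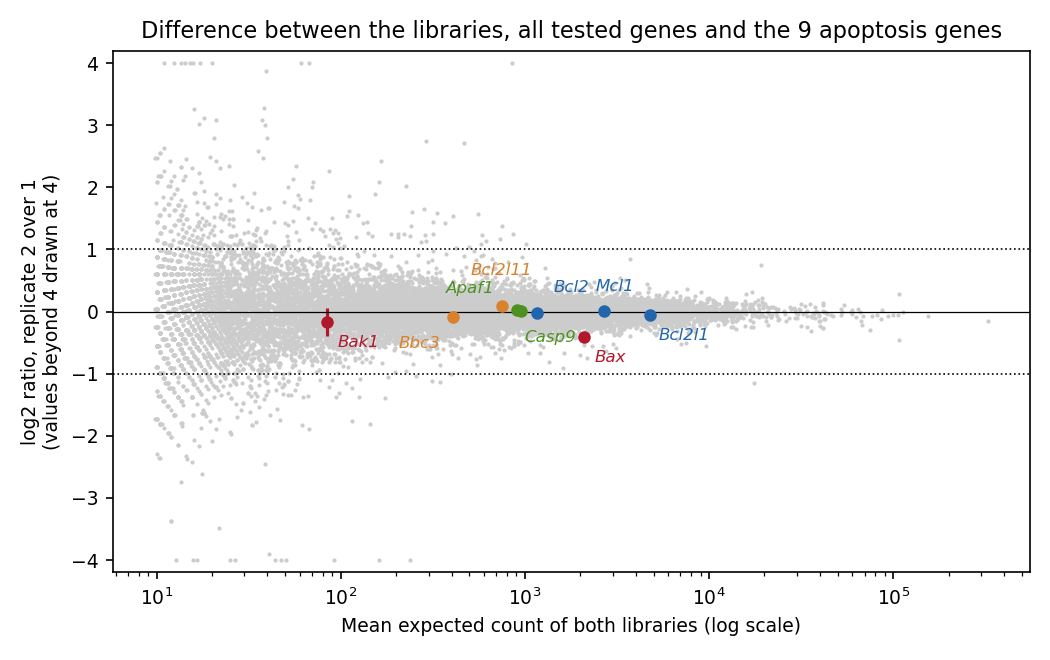
Log2 ratio of replicate 2 over replicate 1 against the mean expected count (log scale) for the 17428 tested genes in grey and the 9 apoptosis genes in colour, with bars for the counting SE and dotted lines at 2-fold. Bax lies at -0.42, the other 8 lie between -0.17 and 0.09, and none reaches 2-fold.

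Markers of some cell types also differed between the libraries. At the adjusted p alone, 12.8% of all tested genes were higher and 11.8% lower in replicate 2. Progenitor markers split into 1 lower and 1 higher of 10, and endothelial markers into 2 lower and 1 higher of 10. Microglia and macrophage markers had 1 lower and 0 higher of 12. Blood cell markers split into 3 lower and 3 higher of 12, and meninges and mesenchyme markers into 2 lower and 3 higher of 10. Of the 13 sensory ganglion and crest markers, 8 were lower in replicate 2 and 1 was higher (adjusted p under 0.05, exact binomial test), with summed levels of 897 and 720 TPM and none at 0 in both libraries. Among them Avil, an actin-binding protein of sensory neurons, stood at 27.0 and 17.5 TPM. Motor neuron markers split into 3 lower and 2 higher of 10, summing to 599 and 515 TPM. The motor and sensory lists share Isl1 and Prph, both lower in replicate 2; without these 2 genes, 1 of 8 motor neuron markers was lower and 2 were higher, summing to 204 and 216 TPM, and 6 of 11 sensory and crest markers were lower and 1 higher, summing to 502 and 421 TPM. The neuron markers split into 4 lower and 2 higher of 10, summing to 4089 and 4021 TPM. Dividing-cell markers were higher in replicate 2 for 9 of 10, at 361 and 459 TPM. The part of any of these in the Bax difference was not tested.

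The 9 genes belong to a wider set of apoptosis genes, taken here as 76 others in 9 lists. Of these, 53 were detected in both libraries and 63 were tested, and 13 of the tested differed at the adjusted p, 10 higher and 3 lower in replicate 2 (20.6%, against 24.6% of all tested genes). The other survival relatives were scarce: 1 of 5 was detected, Bcl2l2, which encodes Bcl-w, at 2.24 and 2.87 TPM. Bcl2l1 exceeded it 51.3-fold and 40.1-fold. Next came Bcl2a1b at 0.81 and 1.17 TPM, and Bcl2a1a had 0 counts; these belong to a family of near-identical copies between which reads may be split. Among the other BH3-only genes, 5 of 6 were detected, and Bad (62.1 and 69.2 TPM) and Bid (20.2 and 20.8 TPM), which links death receptors to mitochondria, stood above both Bbc3 and Bcl2l11. The lowest was Bik, at 0.89 and 0.91 TPM.

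Of the more distant relatives, 5 of 7 were detected, led by the mitophagy receptors Bnip3l (375 and 401 TPM) and Bnip3 (77.2 and 80.6 TPM), with Bcl2l14 lowest at 0 and 0.03 TPM. Bok, a pore-forming relative of Bax and Bak1, stood at 46.4 and 44.3 TPM, 19.3-fold and 21.5-fold above Bak1; it was named after its values had been seen. Among the other caspases, Casp2 stood at 29.4 and 34.6 TPM, above Casp9 in each library, and was higher in replicate 2 (log2 ratio 0.28 ± 0.05, adjusted p = 4.5e-07, exact binomial test), the only one of the 7 tested caspases in that list to differ. Casp14, of the epidermis, had 0 counts, which allows up to 0.0595 and 0.0939 TPM.

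Of 9 inhibitor of apoptosis genes, 5 were detected, led by Birc6 (74.4 and 74.0 TPM) and Birc5 (37.6 and 52.3 TPM), with Naip1, whose close copies may share its reads, lowest at 0.04 TPM in each. Birc5, which encodes survivin and serves cell division, was the one that differed, higher in replicate 2 (log2 ratio 0.44 ± 0.07, adjusted p = 1.2e-07, exact binomial test), as were 9 of 10 dividing-cell markers. All 5 mitochondrial factors were detected; Diablo, which frees caspases from their inhibitors, led at 107 and 98.8 TPM and was lower in replicate 2 (log2 ratio -0.16 ± 0.04, adjusted p = 7.1e-04, exact binomial test). Cycs, the somatic cytochrome c that Apaf1 binds, stood at 66.6 and 67.6 TPM, and Endog was lowest at 13.0 and 11.8 TPM.

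In the death receptor list, 7 of 12 were detected, led by Ngfr (90.6 and 73.9 TPM) and Tnfrsf21 (53.8 and 59.3 TPM), with Tnfsf10 lowest at 0.02 and 0.01 TPM. Ngfr, which encodes the p75 neurotrophin receptor of developing neurons and glia, was lower in replicate 2 (log2 ratio -0.35 ± 0.03, adjusted p = 1.4e-30, exact binomial test), as were 8 of the 13 sensory and crest markers. Cflar and Tnfrsf1a were higher there, by 0.37 and 0.24 on the log2 scale. Among the 14 regulators of the p53, FoxO and JNK pathways, 12 were detected, with Jun (58.4 and 60.5 TPM) and Trp53 (58.3 and 58.0 TPM) highest and Trp73 lowest (0.02 and 0.09 TPM). Mdm2, Mdm4, Foxo1 and Trp63 were higher and Map3k12 lower in replicate 2. Trp63 alone of the 76 also reached 2-fold, on 9 and 33 counts (0.16 and 0.64 TPM, log2 ratio 2.42 ± 0.53, adjusted p = 1.0e-05, exact binomial test). It belongs to the surface epithelium list as well, of which 7 of 10, Trp63 itself included, were at least 2-fold higher in that library. Of the 12 p53 target genes, 9 were detected, led by Cdkn1a (40.9 and 42.9 TPM) and Ccng1 (31.4 and 33.6 TPM), with Eda2r lowest (0.35 and 0.62 TPM); Sesn2 and Trp53inp1 were higher in replicate 2, by 0.28 and 0.19 on the log2 scale.

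**Figure D5:**
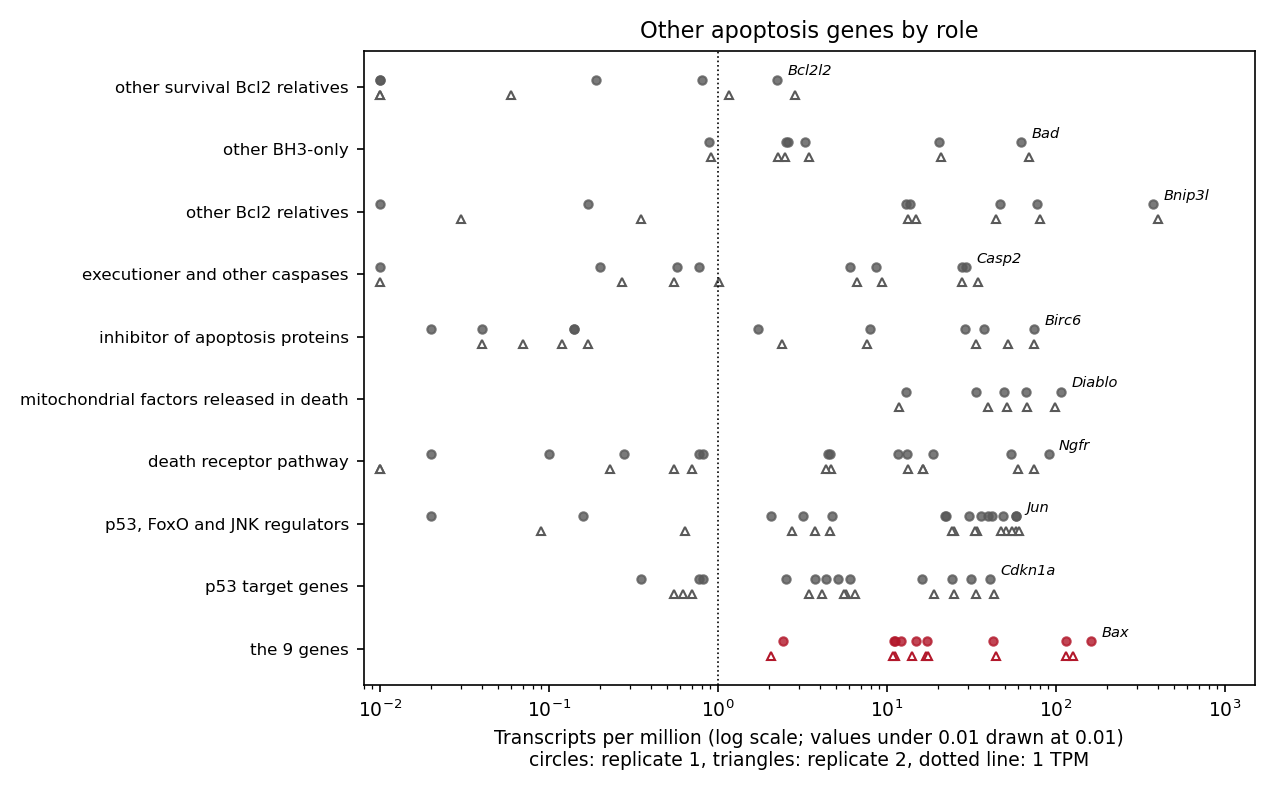
Level in TPM (log scale) of the genes of each other apoptosis list and of the 9 genes (bottom, red), with circles for replicate 1, triangles for replicate 2 and the highest gene shown of each list named. Bnip3l (375 and 401 TPM) stands above Bax and Diablo (107 and 98.8 TPM) just below Bcl2l1, while the other survival relatives reach at most 2.24 and 2.87 TPM.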

How the data were processed

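Total RNA of E13.5 neural tube was analysed from the 2 libraries' deposited gene and transcript tables. Build mm10 and annotation GENCODE M4 are given per the labels and the deposited notes; for the aligner, quantifier and strand handling, nothing is stated in the sources used here. Expected counts, as the authors deposited them, are estimated reads and need not be whole. The deposited TPM divide counts by effective length and scale to a fixed sum over all features, spike-ins included (13.03% and 12.6% of TPM). The deposited FPKM served as an alternative only. The deposited isoform percent is a transcript's percent of its gene's TPM. Posterior means and SDs, per the file headers, are the authors' quantifier's.

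Names, biotypes, coordinates and sequences came from GENCODE M21 (GRCm38), matched on identifiers: of 43 transcripts of the 9 genes, 42 matched, 39 with the same length, and 32 had counts. Libraries were compared by a two-sided exact binomial test of rounded counts against effective library shares from trimmed means (edgeR 4.0.16, R 4.3.3), over genes whose counts averaged at least 10, with p-values adjusted after Benjamini and Hochberg and 0.5 added for log2 ratios. The test was checked on simulated data; it holds counting error only and compares libraries, not conditions. Floors use 3 counts. No molecular identifiers are stated, so intervals also cover counting error only. DESeq2 1.42.0 served for an alternative. Python 3.11.15, pandas 2.3.3, SciPy 1.17.1 and matplotlib 3.10.9 did the rest.

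Members and lists were chosen with earlier results of these data known. The rule named all 9 genes, the 2 highest and the lowest gene of each other list with any that differed between libraries, and transcripts with 5% or more in a library for Bcl2l1, Bcl2l11 and Casp9. No genes of like pattern were sought, since 2 libraries of 1 group give no pattern. Some genes of the lists are counted but their values are not reported here.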

Additional observations from a re-analysis of the deposited data

How the results depend on the processing

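Of the results that answer a comparison, 45 values under alternatives stayed within the spread of the replicates or within 1.5 times of the count, and 6 did not. Some of the 45 could not have moved. With 2 libraries, leaving either out keeps a mean within 1 SD, and it cannot lower the number of genes detected in both. Rescaling TPM over mouse genes leaves ratios within a library unchanged. With a mean count of 50 or more, 117 genes instead of 392 differed at the adjusted p and 2-fold, 0.826% of 14157 tested in place of 2.25% of 17428. The Bcl2l11 over Bbc3 ratio moved from 0.647 to 0.679 with posterior mean TPM and to 0.843 with protein-coding transcripts only, and Apaf1 over Casp9 from 0.807 to 0.579 with the latter. By expected counts in place of TPM, the top transcript share of Bcl2l11 moved from 65.5% to 86.9% and that of Casp9 from 78.5% to 93.1%, since counts are not divided by length. Under spike-in scaling, an alternative added for these log2 ratios after seeing the data, Bcl2 turned from -0.03 to 0.0612 and Bcl2l1 from -0.05 to 0.0350; this scaling shifts all genes alike, and the median of tested genes moved from 0.00 to 0.09. Bax stayed past the adjusted p under all 6 alternatives, at -0.42 to -0.33. The count filters and the posterior mean counts changed neither its counts nor its scaling, so only the alternative scalings could move its ratio. Of the levels, 8 moved beyond 1 SD when TPM were rescaled over mouse genes, 5 with posterior means and 5 with coding transcripts. Depth limits Bak1 most, at 106 and 62.4 counts. No paired analysis of conditions was possible because the study has 1 group, and the test between libraries cannot leave one out.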
